A study of Mus musculus with 24 samples.

Results

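The core loop of the circadian clock was followed through 9 genes, Arntl (also called Bmal1), Clock, Npas2, Per1, Per2, Per3, Cry1, Cry2 and Ciart. They were taken by name from 54752 gene entries of 3 read-count tables from mouse gastrocnemius, the large calf muscle, and all 9 had counts in each of 24 RNA-seq libraries. In this loop the proteins of Arntl and of Clock or its relative Npas2 form a pair that binds E-box sequences and switches on the Per and Cry genes, whose proteins return to the nucleus and block that pair. Ciart, also known as Chrono, is another repressor of the pair and is itself switched on through E-boxes. A further loop of ROR activators and REV-ERB repressors sets the level of Arntl, so that Arntl and the Per genes peak at opposite times of day in most mouse tissues, skeletal muscle included.

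The libraries formed 8 groups of 3, and every animal carried floxed alleles of Numb and NumbL, the adaptor genes that the study deleted. Tamoxifen-treated and vehicle-treated females and males carried HSA-MCM together with Numb(f/f) and NumbL(f/f), here called transgene animals, in which the human skeletal actin promoter drives a tamoxifen-activated Cre recombinase in muscle fibres. Tamoxifen-treated and vehicle-treated females and males of the genotype Numb(f/f)/NumbL(f/f) lacked the recombinase and are called flox animals, although the 6 males are titled WT. The genotypes and treatments thus cross, so that tamoxifen in flox animals is the drug without the recombinase. The sources used here give neither age, nor the dose and timing of tamoxifen, nor the hour of day at which muscle was taken. A difference between tamoxifen and vehicle in these daily cycling genes therefore cannot be told apart from a difference in the hour of collection. The labels do not say that the libraries of a group came from separate animals, so a p-value here measures only how far these libraries spread. In whole muscle, fewer cells of a type and less RNA per cell cannot be told apart.

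Totals were 21516819 to 29982077 counts in the 12 male libraries, 31219445 to 39142101 in the 6 transgene female libraries and 36099031 to 43014516 in the 6 flox female libraries. Levels are counts scaled to library size (CPM), with 1 scaling over all 24 libraries. Numb stood at 17.2 to 19.98 CPM in the 6 transgene libraries after tamoxifen and at 18.1 to 23.8 CPM in the 6 after vehicle, and Numbl at 3.12 to 5.13 CPM and at 2.67 to 3.86 CPM, so counts over the whole gene did not mark the deletion. The 3 transgene male libraries titled vehicle have tamoxifen in their treatment field, and they were grouped by title. Flrt1, a transmembrane protein gene, stood at 3.26 to 3.68 CPM in these 3 libraries, against 8.56 to 279.8 CPM in the 12 tamoxifen libraries and 1.02 to 2.79 CPM in the other 9 vehicle libraries. All 7 fast fibre markers were counted in every library, with summed levels of 109969 to 210587 CPM. Over all genes, tamoxifen library 1 of transgene males differed from the others of its group by 108 and 117 in chi-square per degree of freedom, against 19.3 between those others. Tamoxifen library 1 of flox females differed likewise, by 81.6 and 60.4 against 20.4. Without the first of these, 0 loop genes passed in transgene males and 6 in the mean response, Per1 being lost, and without the second 2 passed in flox females and 7 in the mean response, Clock in place of Per1. Vehicle library 3 of transgene males, 1 of the 3 with conflicting labels, also differed from its group, by 60.8 and 98.7 against 18.2. Without it the log2 change of Per1 in transgene males was -0.35 in place of 0.02. Tamoxifen library 2 of transgene females differed by 85.1 and 55.9 against 30.7. Vehicle library 3 of flox males also differed over all genes, by 23.7 and 24.8 against 9.22, and it stood apart in single genes. It had 249.8 CPM of the heat shock gene Hspa1a, against at most 10.7 CPM in any other library, and its clock genes differed from those of its group as described below.

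The upstream sequences of the members are shown first because the loop acts through short motifs in them. Windows of 250 bases before to 50 bases after the transcription start came from RefSeq (GRCm38.p6), which held 12 windows for 8 of the 9 genes, and Per2 is named only. Searched on both strands were the E-box CACGTG, the related CACGTT, the D-box forms TTATGTAA and TTATGCAA bound by DBP, TEF and HLF, the ROR half-site AGGTCA and the palindromic oestrogen response element, which shares letters with the half-site. Among 32851 such windows of 27025 genes, 7.15% held CACGTG, 4.68% CACGTT, 0.938% TTATGTAA, 0.743% TTATGCAA, 16.3% AGGTCA and 0.07% the oestrogen response element. A match is a description of letters in this window and not evidence of binding.
The stretches below carry the matches of the genes whose changes are described most fully, with the motif letters in capitals and the gene's own strand read 5′ to 3′. Ciart lies on chr3:95882259-95882358, minus strand, and Cry1 on chr10:85185095-85185154, minus strand. Per1 lies on chr11:69098769-69098938, plus strand, Per3 on chr4:151044806-151044885, minus strand, and Arntl on chr7:113207532-113207556, plus strand.
Ciart: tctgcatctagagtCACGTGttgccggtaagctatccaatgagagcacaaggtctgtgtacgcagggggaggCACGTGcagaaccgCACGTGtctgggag
Cry1: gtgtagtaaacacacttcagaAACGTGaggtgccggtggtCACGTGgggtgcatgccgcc
Per1: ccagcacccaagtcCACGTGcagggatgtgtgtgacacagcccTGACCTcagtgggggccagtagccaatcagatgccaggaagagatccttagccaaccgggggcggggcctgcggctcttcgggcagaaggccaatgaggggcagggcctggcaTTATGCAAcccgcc
Per3: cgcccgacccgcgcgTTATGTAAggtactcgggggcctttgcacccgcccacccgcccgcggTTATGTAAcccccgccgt
Arntl: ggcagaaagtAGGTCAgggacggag

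Ciart held 3 E-boxes, whose first bases lay at -116, -58 and -44 from the start. Cry1 held 1 E-box at -60 and, read on the other strand, CACGTT at -79. Per1 held an E-box at -166, the half-site on the other strand at -137 and TTATGCAA at -24, all at 1 of its 2 starts. The E-box was thus found in 3 of the 12 windows, those of 3 of the 8 genes, where 7.15% of all windows held it. The share of all genes with an E-box in any of their windows was not counted. Per3 had no E-box in this window and held TTATGTAA at -205 and at -158. Arntl held the half-site at +32, downstream of 1 of its starts and within an exon. Cry2 held CACGTT on the other strand at -166 and Clock the half-site on the other strand at -119. None of the 12 windows held the oestrogen response element, and the Npas2 window held none of the letters searched.

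**Figure D1:**
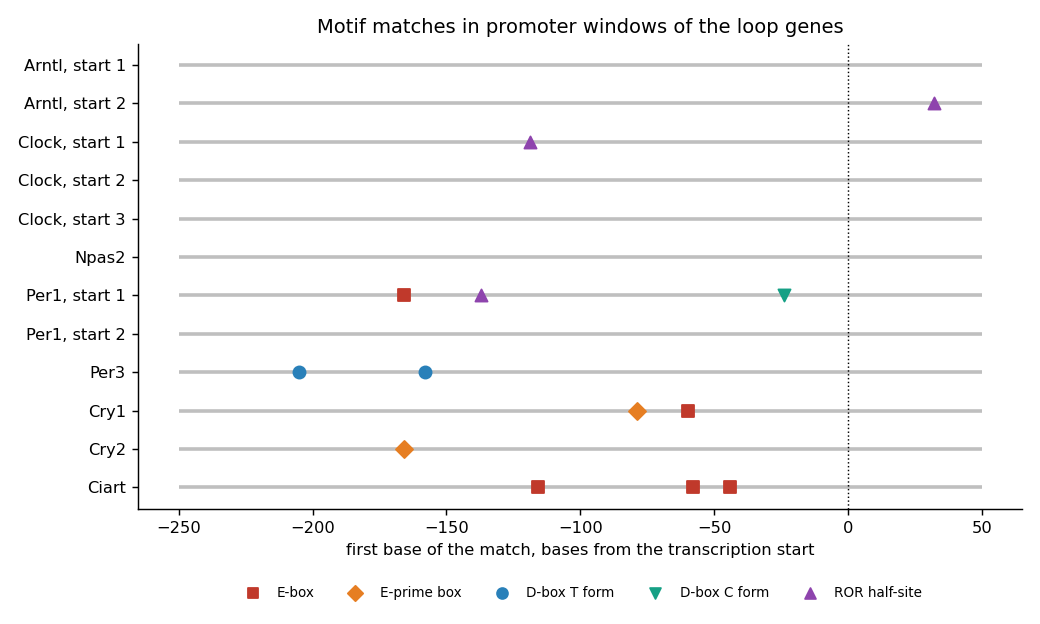
Position of motif matches in the promoter windows of 8 loop genes, 1 line per transcription start; the x axis gives the distance in bases from the start, and each symbol is the first base of a match. The 3 E-boxes of Ciart lie at -116, -58 and -44, and 5 of the 12 windows hold no match.

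Per unit of transcript length Per1 and Cry2 were the most abundant of the genes. Per1 had the highest median over the 24 libraries, 16.1 CPM per kb of exon, and ranked 1 or 2 in every library. Cry2 followed with 7.42 CPM per kb. The next medians were 4.65 CPM per kb for Cry1, 4.16 for Ciart, 3.59 for Per3, 2.75 for Clock, 2.42 for Per2 and 2.17 for Arntl. Npas2, which stands in for Clock in some tissues, was lowest at 0.199 CPM per kb and rested on 2 to 80 counts per library. Between the highest and the lowest library the level differed 28.7-fold for Npas2, 22.2-fold for Per2, 12.9-fold for Arntl and 10.9-fold for Ciart. The same ratio was 6.61 for Per1, 4.57 for Per3, 3.28 for Clock, 3.19 for Cry2 and 1.96 for Cry1. The genes of the loop thus ranged from nearly level over the libraries, as Cry1, to strongly varying, as Per2 and Arntl.

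**Figure D2:**
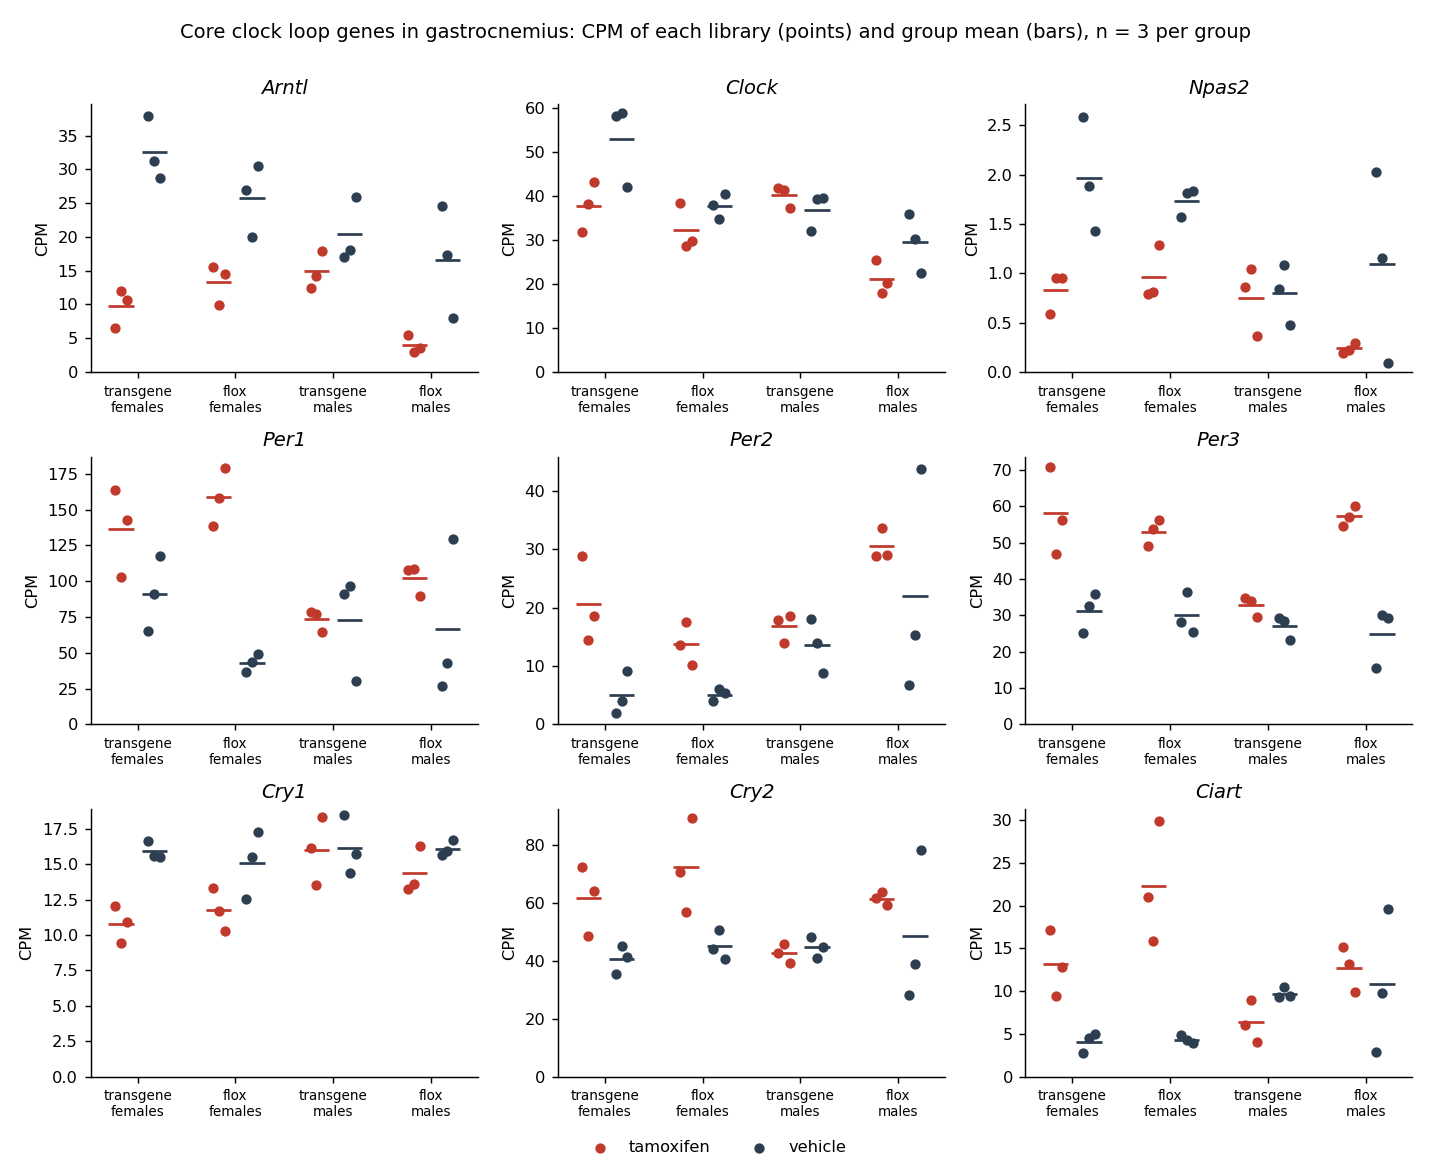
CPM of the 9 loop genes in each of the 24 libraries (points) with group means (bars, n = 3), tamoxifen left of vehicle in each of the 4 pairs, on linear axes from 0. Arntl is lower after tamoxifen in both female pairs and in flox males without overlap, and Per3 is higher without overlap in all 4 pairs.

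Averaged over the 4 pairs of groups, the activators Arntl and Npas2 fell to 0.405-fold and 0.469-fold of vehicle and Cry1 fell to 0.827-fold. The 3 Per genes and Ciart rose, by 1.71-fold for Per1, 2.08-fold for Per2, 1.74-fold for Per3 and 1.89-fold for Ciart. In this mean response 7 of 9 genes passed the test, 4 higher and 3 lower, where 8.83% of the 16670 genes tested passed, 3.95% higher and 4.88% lower. The test is edgeR's quasi-likelihood test with Benjamini-Hochberg adjustment over all genes tested and a threshold of 0.05, which all adjusted p-values of genes below refer to. Clock and Cry2 did not pass, with log2 changes of -0.27 ± 0.09 (SE, adjusted p = 0.0552) and 0.39 ± 0.13 (adjusted p = 0.0717). The median log2 change of the 9 genes was 0.39, against 0.00 for all genes.

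Pair by pair the calls were fewer. In transgene females 3 of the 9 genes passed, Ciart higher and Arntl and Cry1 lower, where 1.32% of all genes passed, 0.612% higher and 0.704% lower. The libraries of tamoxifen and vehicle did not overlap for 7 of the 9 genes there, where 22.4% of all genes did not overlap. In flox females, which lack the recombinase, 2 of 9 passed, Per1 and Ciart, both higher, where 0.131% of all genes passed, 0.0963% higher. Again 7 of the 9 genes did not overlap, where 14.2% of all genes did not. Flox males had 2 genes that passed, Per3 higher and Arntl lower, where 2.89% of all genes passed, 1.35% higher and 1.54% lower, and the same 2 genes were those whose libraries did not overlap, where 28% of all genes did not. Transgene males had 0 of 9, with 0 of 9 at an unadjusted p under 0.05 and 0 by DESeq2, where 0.889% of all genes passed. Their groups did not overlap for Per3, higher, and Ciart, lower, where 13.8% of all genes did not overlap. The median log2 change of the 9 genes was 0.59 in transgene females, -0.01 in transgene males, 0.68 in flox females and 0.25 in flox males, against 0.01, 0.01, 0.00 and -0.01 for all genes in the same order.

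**Figure D3:**
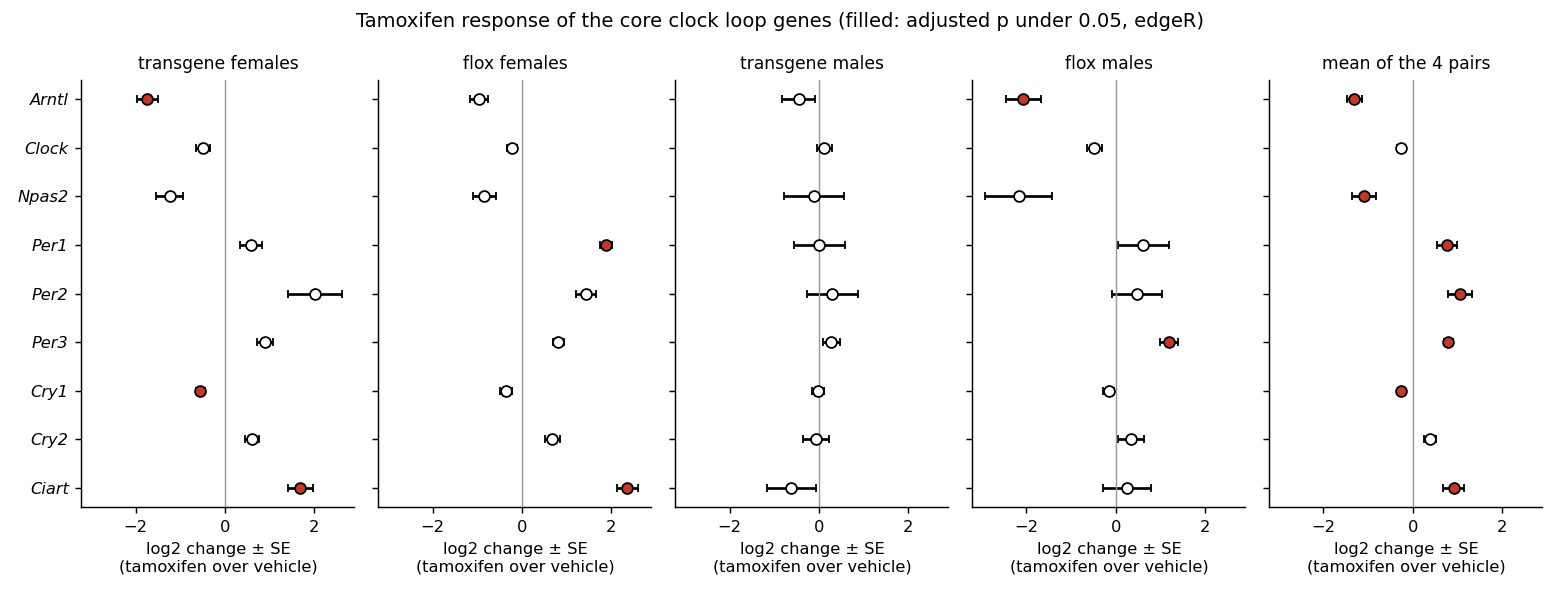
Log2 change of each loop gene, tamoxifen over vehicle, with its standard error, in the 4 pairs (n = 3 libraries per group) and as their mean; filled points have an adjusted p under 0.05 in edgeR. In the mean, Arntl, Npas2 and Cry1 lie left of 0 and the 3 Per genes and Ciart right of 0, and in transgene males all 9 points are open.

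Arntl (chr7:113207465-113314126, plus strand) encodes BMAL1, the activator without which mice lose their daily rhythm. Its level was 6.48, 12.004 and 10.7 CPM in tamoxifen-treated transgene females, against 37.9, 31.2 and 28.8 CPM in vehicle-treated ones. In flox females the libraries had 15.6, 9.99 and 14.5 CPM after tamoxifen and 26.98, 20.007 and 30.5 CPM after vehicle. All 3 libraries of each female tamoxifen group lay below all 3 of their vehicle group. Flox males had 5.46, 2.93 and 3.54 CPM after tamoxifen, against 24.6, 17.4 and 7.93 CPM after vehicle. Transgene males had 12.5, 14.3 and 18.0 CPM after tamoxifen and 17.1, 18.1 and 25.9 CPM after vehicle. The flox male groups did not overlap, while in transgene males the highest tamoxifen library lay within the vehicle range.

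Arntl fell in transgene females and in flox males. The log2 changes were -1.74 ± 0.24 (SE, adjusted p = 0.0353) in transgene females and -2.07 ± 0.40 (adjusted p = 0.0262) in flox males. Group means were 9.74 ± 2.89 CPM after tamoxifen and 32.6 ± 4.71 CPM after vehicle in transgene females (SD, n = 3 each), and 3.98 ± 1.32 and 16.6 ± 8.34 CPM in flox males. Its log2 change was -0.95 ± 0.20 in flox females (adjusted p = 0.266) and -0.45 ± 0.37 in transgene males (adjusted p = 0.773). The mean over the pairs was -1.31 ± 0.17 (adjusted p = 9.47e-05). Tamoxifen-treated flox males formed the lowest of the 8 groups, with a range apart from that of the next, tamoxifen-treated transgene females at 9.74 CPM. No other neighbours in the order of group means were apart. Such an order runs across tables, so the table cannot be told apart from sex or genotype in it. Single libraries bore on the 2 calls within pairs. The call in transgene females was lost without vehicle library 1, 2 or 3 or tamoxifen library 3 (adjusted p = 0.109, 0.109, 0.0589 and 0.082), and that in flox males without vehicle library 1 or 2 or tamoxifen library 2 or 3 (adjusted p = 0.0811, 0.0625, 0.0972 and 0.133).

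Clock (chr5:76209868-76304792, minus strand) encodes the usual partner of BMAL1, and its transcript varied less. In transgene females it stood at 31.8, 38.3 and 43.1 CPM after tamoxifen and at 58.3, 58.8 and 42.0 CPM after vehicle, which overlap. Flox males had 25.5, 17.9 and 20.2 CPM after tamoxifen, against 36.01, 30.2 and 22.4 CPM after vehicle, and overlapped as well. Its log2 change did not pass in any pair, at -0.48 ± 0.16 in transgene females (adjusted p = 0.188), 0.12 ± 0.17 in transgene males (0.881), -0.22 ± 0.12 in flox females (0.633) and -0.48 ± 0.17 in flox males (0.161). Over the 12 libraries of each treatment it ranged from 17.9 to 43.1 CPM with a median of 34.6 after tamoxifen, and from 22.4 to 58.8 CPM with a median of 38.7 after vehicle. The highest group, vehicle-treated transgene females, lay at 53.1 CPM, with a range apart from that of the next, tamoxifen-treated transgene males, which lie in another table.

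Npas2 (chr1:39193731-39363236, plus strand) encodes a relative of CLOCK that also pairs with BMAL1. It stood at 0.585, 0.957 and 0.949 CPM in tamoxifen-treated transgene females, against 2.59, 1.89 and 1.43 CPM after vehicle. In flox females it had 0.791, 0.810 and 1.29 CPM after tamoxifen and 1.57, 1.81 and 1.83 CPM after vehicle. Neither female pair overlapped. Flox males had 0.198, 0.225 and 0.292 CPM after tamoxifen, and 2.03, 1.16 and 0.0901 CPM after vehicle, the last being the library with high Hspa1a, with 2 counts. The log2 change was -1.24 ± 0.30 in transgene females (adjusted p = 0.0932), -0.10 ± 0.68 in transgene males (0.979), -0.84 ± 0.25 in flox females (0.373) and -2.18 ± 0.76 in flox males (0.158), so it passed in no single pair. Its mean over the pairs, -1.09 ± 0.27, passed (adjusted p = 0.0121) and also passed without any 1 of the 24 libraries.

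Per1 (chr11:69095217-69109960, plus strand) encodes a PERIOD repressor that also responds quickly to signals such as glucocorticoids. In flox females it stood at 139, 158 and 179 CPM after tamoxifen, against 36.2, 43.3 and 49.3 CPM after vehicle. The groups lay far apart, with means of 159 ± 20.3 and 42.9 ± 6.53 CPM (SD, n = 3 each), and Per1 rose there by 1.89 ± 0.13 on the log2 scale (SE, adjusted p = 0.00117). This call held without any 1 of the 6 libraries. The summed level of 7 immediate early and stress genes also did not overlap in that pair, with 471 to 553 CPM after tamoxifen and 221 to 323 CPM after vehicle, although none of the 7 passed the test. Of all single genes, 14.2% did not overlap there. The part of this sum in the Per1 value was not tested.

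The other pairs were more mixed for Per1. Transgene females had 163, 103 and 143 CPM after tamoxifen and 65.4, 90.8 and 118 CPM after vehicle. Flox males had 108, 109 and 89.3 CPM after tamoxifen, against 27.1, 43.1 and 129 CPM after vehicle, the last being the library with high Hspa1a. Transgene males had 78.3, 77.4 and 64.3 CPM after tamoxifen, against 90.9, 96.7 and 30.5 CPM after vehicle. All 3 of these pairs overlapped. The log2 change was 0.59 ± 0.25 in transgene females (adjusted p = 0.322), 0.61 ± 0.58 in flox males (0.643) and 0.02 ± 0.57 in transgene males (0.995). Without that vehicle library the flox male value was 1.54 (adjusted p = 0.14), and without vehicle library 1 instead it was 0.24. The mean over the pairs, 0.77 ± 0.23, passed narrowly (adjusted p = 0.0424), and leaving out any of 19 of the 24 libraries in turn ended that call (adjusted p up to 0.0824). It held without transgene female vehicle 3 or tamoxifen 2, transgene male vehicle 1 or 2, or flox male vehicle 3.

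Per2 (chr1:91415982-91459324, minus strand), whose mutation disrupts daily rhythms in mice, was among the most variable of the genes. Its level was 28.8, 14.4 and 18.5 CPM in tamoxifen-treated transgene females, against 1.97, 4.07 and 9.20 CPM after vehicle. In flox females it was 13.6, 17.6 and 10.2 CPM after tamoxifen and 3.93, 6.08 and 5.32 CPM after vehicle. Both female pairs were free of overlap. Flox males had 28.9, 33.6 and 29.1 CPM after tamoxifen, against 6.76, 15.3 and 43.8 CPM after vehicle. Transgene males had 17.9, 13.96 and 18.5 CPM after tamoxifen, against 18.1, 13.9 and 8.76 CPM after vehicle. In flox males the vehicle library with high Hspa1a exceeded all 3 tamoxifen libraries, and the other 2 lay below them.

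No single pair passed for Per2. The log2 change was 2.02 ± 0.60 in transgene females (SE, adjusted p = 0.204), 0.31 ± 0.56 in transgene males (0.916), 1.44 ± 0.23 in flox females (0.106) and 0.48 ± 0.55 in flox males (0.714). All 4 values lay above 0, those of both male pairs by less than their standard error. The share of all genes with the same direction in every pair was not counted. The mean response, 1.06 ± 0.27, passed (adjusted p = 0.0222), also without any 1 of the 24 libraries. Leaving out the third flox male vehicle library moved the flox male value to 1.46 (adjusted p = 0.0786), and leaving out the first instead moved it to 0.043.

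Per3 (chr4:151003652-151044665, minus strand), the third PERIOD gene, was higher after tamoxifen without overlap in every pair. Transgene females had 70.9, 46.9 and 56.3 CPM after tamoxifen, against 25.0, 32.6 and 35.9 CPM after vehicle. Flox females had 49.2, 53.7 and 56.2 CPM after tamoxifen and 28.1, 36.5 and 25.5 CPM after vehicle. The lowest tamoxifen library in females, at 46.9 CPM, lay above the highest vehicle library, at 36.5 CPM. In flox males the level was 54.6, 57.2 and 60.1 CPM after tamoxifen, against 15.5, 30.1 and 29.2 CPM after vehicle. Transgene males had 34.9, 34.0 and 29.6 CPM after tamoxifen and 29.4, 28.5 and 23.2 CPM after vehicle. Tamoxifen libraries thus lay above vehicle libraries in 4 of 4 pairs, by a narrow margin in transgene males, 29.6 against 29.4 CPM. Lack of overlap was common in any 1 pair, at 13.8% to 28% of all genes. How many genes lacked overlap in the same direction in all 4 was not counted, so this count has no background to be set against.

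Per3 rose in flox males by 1.20 ± 0.20 on the log2 scale (SE, adjusted p = 0.0084), a call that held without any 1 of the 6 libraries. The values in the other pairs were 0.90 ± 0.18 in transgene females (adjusted p = 0.0651), 0.82 ± 0.13 in flox females (0.0776) and 0.28 ± 0.20 in transgene males (0.712). The mean of 0.80 ± 0.10 had the smallest adjusted p of the 9 genes, 3.31e-05. In the order of group means, tamoxifen-treated flox females at 53.0 CPM were apart from tamoxifen-treated transgene males at 32.8 CPM, which lie in another table. The 3 tamoxifen groups other than transgene males therefore formed the top of the order.

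Cry1 and Cry2 encode the cryptochromes, the repressors that act with the PERIOD proteins, and their mean changes had opposite signs. Cry1 (chr10:85131700-85185064, minus strand) had 12.04, 9.42 and 10.9 CPM in tamoxifen-treated transgene females, against 16.6, 15.6 and 15.5 CPM after vehicle. These groups did not overlap, and Cry1 fell there by 0.55 on the log2 scale (SE 0.11, adjusted p = 0.0481). That call was lost whichever of the 6 libraries was left out (adjusted p from 0.0708 to 0.18). In flox females Cry1 had 13.3, 11.7 and 10.3 CPM after tamoxifen and 12.5, 15.5 and 17.3 CPM after vehicle, which overlap. In males it stood at 13.3 to 18.4 CPM after tamoxifen and at 14.4 to 18.4 CPM after vehicle. Log2 changes in these pairs were -0.01 ± 0.13 in transgene males (adjusted p = 0.984), -0.36 ± 0.14 in flox females (0.503) and -0.16 ± 0.13 in flox males (0.56). The mean response was small, at -0.27 ± 0.07, and passed (adjusted p = 0.0107), also without any 1 of the 24 libraries.

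Cry2 (chr2:92403646-92434043, minus strand) stood at 72.1, 48.7 and 64.0 CPM in tamoxifen-treated transgene females, against 35.3, 45.2 and 41.3 CPM after vehicle. In flox females it had 70.7, 56.8 and 89.2 CPM after tamoxifen and 44.2, 50.4 and 40.5 CPM after vehicle. Both female pairs were without overlap. Flox males had 61.5, 63.6 and 59.1 CPM after tamoxifen, against 27.98, 38.9 and 78.3 CPM after vehicle, the last again the library with high Hspa1a. Transgene males had 42.5, 45.8 and 39.1 CPM after tamoxifen and 48.0, 41.0 and 44.7 CPM after vehicle. No pair passed, with log2 changes of 0.61 ± 0.15 in transgene females (adjusted p = 0.0985), -0.07 ± 0.29 in transgene males (0.968), 0.68 ± 0.16 in flox females (0.312) and 0.34 ± 0.29 in flox males (0.603). Of the Cry2 exon bases, 4.67% lie opposite an exon of D930015M05Rik on the other strand, and the strand setting of the counting is not given in the sources used here.

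Ciart (chr3:95878503-95882251, minus strand), the repressor with 3 E-boxes in the stretch shown above, had the largest log2 change of the 9 genes in flox females. Flox females had 21.0, 15.9 and 29.9 CPM after tamoxifen, against 4.81, 4.24 and 3.92 CPM after vehicle. Transgene females had 17.2, 9.39 and 12.8 CPM after tamoxifen, against 2.75, 4.48 and 5.04 CPM after vehicle. Every tamoxifen library of females lay above every vehicle library of females. Transgene males had 6.03, 8.97 and 4.07 CPM after tamoxifen, against 9.26, 10.5 and 9.40 CPM after vehicle. Flox males had 15.2, 13.2 and 9.91 CPM after tamoxifen and 2.90, 9.82 and 19.6 CPM after vehicle. The transgene male libraries thus lay the other way round, without overlap, and the flox male groups overlapped.

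Ciart rose in flox females by 2.37 ± 0.24 on the log2 scale (SE, adjusted p = 0.0255) and in transgene females by 1.69 ± 0.28 (adjusted p = 0.0472). The first call was lost without any 1 of its vehicle libraries (adjusted p = 0.143, 0.143 and 0.155), and the second without any 1 library but tamoxifen library 2 (adjusted p from 0.0678 to 0.152). Its log2 change was -0.62 ± 0.55 in transgene males (adjusted p = 0.802) and 0.25 ± 0.54 in flox males (0.862). The mean over the pairs, 0.92 ± 0.23, passed (adjusted p = 0.018), also without any 1 of the 24 libraries.

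Whether the 4 responses differed was tested directly over all 24 libraries. None of the 9 genes passed, where 0.45% of all genes passed, with 4 of 9 at an unadjusted p under 0.05. Ciart had the smallest p of the 9 (adjusted p = 0.117), and was the 1 gene that passed in DESeq2 (adjusted p = 0.00337). Arntl (adjusted p = 0.279), Per3 (0.336) and Cry1 (0.383) were the other 3.

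The design also allows the transgene response to be set against the flox response within a sex. Tamoxifen activates the recombinase in transgene animals, which also carry the floxed alleles. The recombinase and the deletion of Numb and NumbL therefore cannot be told apart in this difference. In females 0 of 9 genes passed, where 0% of all genes passed. At an unadjusted p under 0.05 stood Per1, with a difference of -1.30 ± 0.32 on the log2 scale (SE, adjusted p = 0.354), and Arntl, with -0.79 ± 0.35 (adjusted p = 0.654). DESeq2 passed Per1 alone among the 9 (adjusted p = 0.00704). Transgene and flox females lie in separate tables, so in females the genotype and the table cannot be told apart. In males 0 of 9 passed in edgeR and 0 in DESeq2, where 0.0128% of all genes passed in edgeR, and 3 had an unadjusted p under 0.05. These were Per3 with -0.92 ± 0.28 (adjusted p = 0.376), Arntl with 1.62 ± 0.54 (adjusted p = 0.465) and Clock with 0.60 ± 0.24 (adjusted p = 0.543). The response of Arntl was thus the larger fall in transgene females and the smaller one in transgene males, with neither difference past the threshold.

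Without tamoxifen, transgene and flox males could be compared within a table. None of the 9 genes passed between the vehicle-treated transgene males and the vehicle-treated flox males, where 0.947% of all genes passed, and 0 had an unadjusted p under 0.05. The log2 differences, transgene over flox, ran from -0.70 ± 0.56 for Per2 to 0.32 ± 0.17 for Clock. DESeq2 also passed 0 of 9. These values rest on the 3 libraries with conflicting labels.

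The mean response and the flox male pair were computed again with a pair or a library left out. Without the transgene male pair 8 of 9 genes passed in the mean response, where 1435 of 16651 genes passed. All but Cry2 (0.54, adjusted p = 0.0706) were among them, and only Clock was added, at -0.40 (adjusted p = 0.0317). Of those that passed before, Ciart stood at 1.43 (adjusted p = 0.00946) and Per1 at 1.03 (adjusted p = 0.0262). Leaving out only the third flox male vehicle library brought all 9 genes past the threshold, where 1412 of 17154 genes passed, among them Cry2 at 0.52 (adjusted p = 0.00025) and Clock at -0.31 (adjusted p = 0.0193). In flox males alone, 4 loop genes then passed in place of 2, while 349 of 15991 genes passed in place of 452 of 15628. These were Arntl at -2.40 (adjusted p = 0.00381), Npas2 at -2.70 (0.0147), Per3 at 1.33 (0.0134) and Cry2 at 0.88 (0.00672). In that library the summed immediate early and stress genes reached 1345 CPM, the top of a vehicle range that began at 181 CPM, against 241 to 306 CPM after tamoxifen. Leaving out the first flox male vehicle library instead moved flox male log2 changes the other way. They were then -1.68 for Arntl, -1.42 for Npas2, -0.31 for Clock and 0.95 for Per3. Per1 stood at 0.24, Per2 at 0.043, Cry2 at 0.062 and Ciart at -0.21.

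Genes that act next to the loop were taken from a list of 28 partners, of which Rorb and Fbxl21 were too low to test. In the mean response 4 of the 26 tested passed, all higher, where 3.95% of all genes passed higher, with a median log2 change of 0.07 against 0.00 for all genes. Of these, 3 are the PAR-bZIP factors that bind D-boxes like those of Per3 and Per1 above. Dbp rose by 0.80 ± 0.16 on the log2 scale (SE, adjusted p = 0.00392), Hlf by 0.47 ± 0.12 (0.0187) and Tef by 0.25 ± 0.06 (0.0118). The fourth, Arntl2, a relative of Arntl at 1.37 to 3.61 CPM, rose by 0.39 ± 0.10 (adjusted p = 0.0125). Its direction was thus the opposite of that of Arntl. Nr1d1, which encodes the REV-ERB repressor of Arntl, had a log2 change of -0.35 ± 0.14 (adjusted p = 0.157), and Nr1d2, its relative, one of 0.16 (adjusted p = 0.167).

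Single pairs added a few partners. Dbp stood at 153, 109.7 and 129 CPM in tamoxifen-treated transgene females, against 32.3, 69.3 and 59.3 CPM after vehicle, and at 153, 157 and 172 CPM in tamoxifen-treated flox females, against 82.2, 84.5 and 49.0 CPM after vehicle. These libraries did not overlap in either pair, where 22.4% and 14.2% of all genes did not, and Dbp passed in neither. These Dbp values were chosen after they were seen, and its male libraries are not listed here. Without the transgene male pair its mean log2 change was 1.06 (adjusted p = 0.00432, edgeR), against 0.80 with that pair, so the transgene male change lay below this mean. Hlf rose in transgene females, by 0.88 ± 0.15 (adjusted p = 0.0353), a call lost without vehicle library 1 or 3 or tamoxifen library 1 or 3 (adjusted p = 0.137, 0.0746, 0.121 and 0.0744). Bhlhe40, which encodes DEC1, another E-box repressor, had 153, 172 and 176 CPM there after tamoxifen, against 215, 250.5 and 243 CPM after vehicle, and fell by 0.49 on the log2 scale (SE 0.09, adjusted p = 0.047), a call lost whichever of the 6 libraries was left out. In flox females Usp2, a deubiquitinase with daily rhythm, rose by 0.85 ± 0.11 (adjusted p = 0.0218), which was lost without any 1 of the vehicle libraries (0.104, 0.122 and 0.116). Transgene males had 0 of 26 partners past the threshold, where 0.889% of all genes passed, with 1 at an unadjusted p under 0.05.

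**Figure D4:**
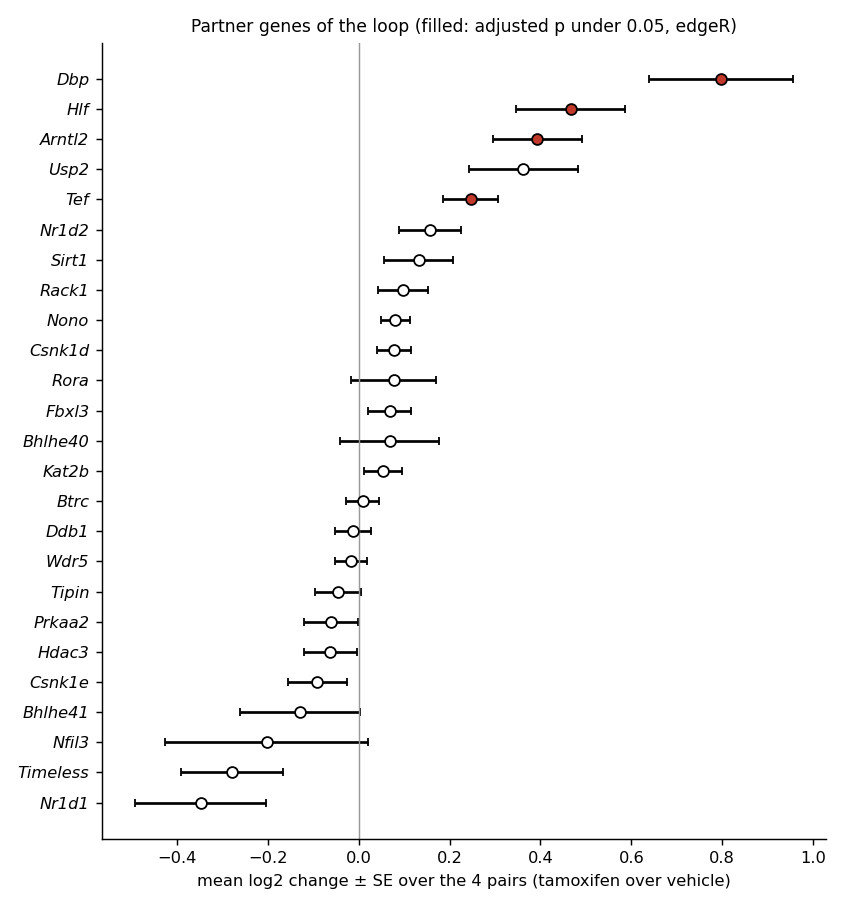
Mean log2 change over the 4 pairs, tamoxifen over vehicle, with its standard error, for partner genes tested (24 libraries); filled points have an adjusted p under 0.05 in edgeR. Dbp at 0.80, Hlf at 0.47, Arntl2 at 0.39 and Tef at 0.25 are filled, and Nr1d1 at -0.35 is lowest.

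Markers of other cells in muscle were set beside these values. In no pair did a marker of slow or fast fibres, adipocytes, endothelium, fibroblasts, satellite cells, macrophages, Schwann cells or blood, or an immediate early gene, pass the test. In the mean response Kdr, an endothelial receptor, fell by 0.48 on the log2 scale (adjusted p = 0.0478) and Cd68 of macrophages by 0.64 (adjusted p = 0.0446), and no other marker passed. Both were lost without most single libraries, Kdr without 22 of 24 and Cd68 without 18 of 24 (adjusted p up to 0.0908 and 0.101). Summed slow fibre markers (7 of 7 counted) varied widely, with 3350 to 7286 CPM after tamoxifen and 1120 to 5886 CPM after vehicle in transgene females, and with 121 to 2425 and 340 to 2945 CPM in transgene males. Sums did not overlap for satellite cells (3 of 3 markers) in transgene females, at 29.9 to 33.0 CPM after tamoxifen and 33.7 to 40.4 CPM after vehicle, nor in flox males, at 29.4 to 31.8 and 23.6 to 28.1 CPM. The same held for fast fibres (7 of 7) in flox males, at 137638 to 149506 and 122666 to 133016 CPM, and for fibroblasts (5 of 5) in transgene males, at 459.8 to 494 and 303 to 443 CPM. Their part in the clock gene values was not tested.

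The transcripts most like Arntl over the 24 libraries were sought among 10305 genes whose mean log2 CPM was at least 1, by Pearson correlation of log2 CPM. The libraries share treatment, sex and table, so these values are descriptions. The 5 highest were Arhgef10l (r = 0.918), Asb2 (0.917), Slc16a9 (0.912), Popdc2 (0.904) and Ubtd1 (0.891). At the opposite end lay Tspan4 (r = -0.908), Prodh (-0.876), Per2 (-0.851), Snrk (-0.844) and Cys1 (-0.838). A member of the loop, Per2, was thus the third most opposed to Arntl of all genes compared. Clock ranked 21 from the top (r = 0.830). Per3 ranked 30 from the bottom (-0.728), Cry2 91 (-0.635), Ciart 100 (-0.631) and Per1 305 (-0.513). Npas2, too low for the comparison set, had r = 0.776 and Cry1 r = 0.285.

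Among libraries of the same group, apart from the treatment, Clock and the 3 Per genes varied with Arntl and the other 4 genes did not pass. Deviations of log2 CPM from the group mean were compared between Arntl and each of the other 8 genes over the 24 libraries, with permutation within groups and Benjamini-Hochberg adjustment over the 8 relations. Clock deviated with Arntl (Pearson r = 0.791, permutation p = 0.00073, adjusted p = 0.00292). Its Spearman rho was 0.739 (adjusted p = 0.00429). Libraries with more Arntl than their group had less of all 3 Per genes. Pearson r was -0.743 for Per1 (permutation p = 0.00302, adjusted p = 0.00604), -0.778 for Per2 (p = 0.00033, adjusted p = 0.00264) and -0.748 for Per3 (p = 0.00274, adjusted p = 0.00604). Spearman rho was -0.617 for Per1 (permutation, adjusted p = 0.0198), -0.750 for Per2 (0.00392) and -0.740 for Per3 (0.00344). With RLE scaling the rho of Per1 was -0.546 and no longer passed (permutation, adjusted p = 0.0576). Of the 10305 genes compared above, 0.301% had a within-group r with Arntl at least as large in size as the smallest of these 4, that of Per1, among them Tspan4 at -0.793 and Popdc2 at 0.791.

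The other 4 relations did not pass. Pearson r was 0.544 for Npas2 (permutation, adjusted p = 0.245), -0.156 for Cry1 (0.457), -0.667 for Cry2 (0.0778) and -0.593 for Ciart (0.132). The 2 libraries whose Arntl lay farthest from the median were the third and first vehicle libraries of flox males. Without them r was 0.692 for Clock, -0.512 for Per1, -0.600 for Per2 and -0.787 for Per3 over 22 libraries, while it was -0.0796 for Npas2, -0.279 for Cry2 and -0.213 for Ciart. Within the tables, r for Per3 was -0.92 in the 6 transgene female libraries, -0.717 in the 6 flox female libraries and -0.707 in the 12 male libraries. For Per2 it was -0.725, -0.658 and -0.856 in the same order, and for Clock 0.705, 0.77 and 0.847. Per1 did not hold in 1 table, with -0.785 in transgene females, 0.0202 in flox females and -0.826 in males.

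**Figure D5:**
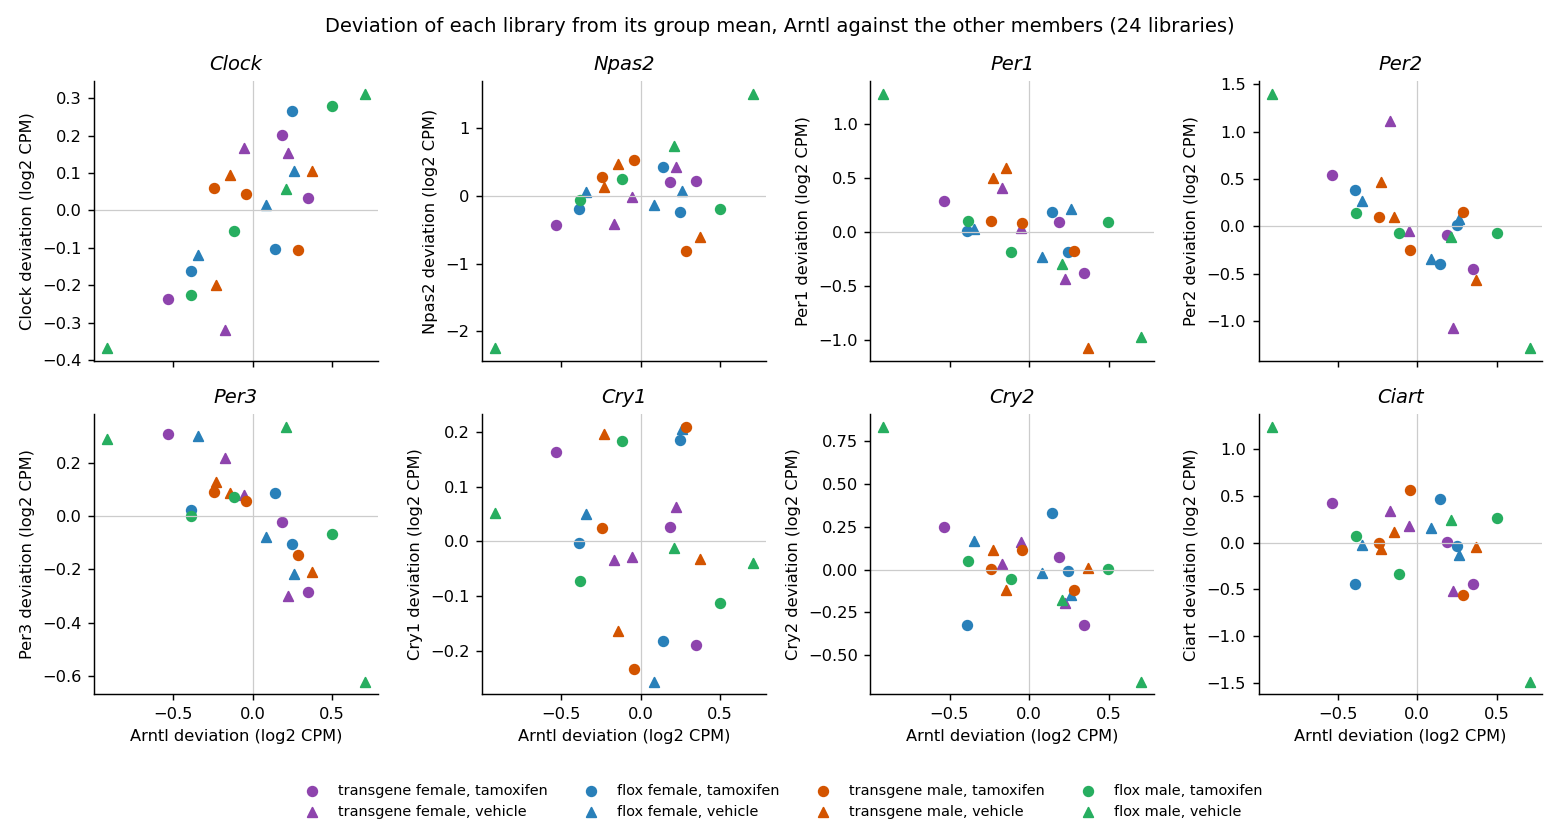
Deviation of each of the 24 libraries from its group mean in log2 CPM, Arntl on the x axis and each of the other 8 loop genes on the y axis; circles are tamoxifen and triangles vehicle libraries, coloured by sex and genotype. Clock slopes upward (r = 0.791), Per1, Per2 and Per3 slope downward, and the third and first vehicle libraries of flox males lie at the left and right ends.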

How the data were processed

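The authors deposited unnormalized counts of reads for each Ensembl gene in 3 tables, transgene females, flox females and males. STAR, featureCounts, limma, GRCm38 and mm10 are named, per the submitters' processing notes, without versions or roles. How strand and multi-mapped reads were handled and which annotation release was used is not given in the sources used here. From the authors' counts, CPM were computed with TMM scaling over all 24 libraries, and levels per length with exon bases of the GENCODE annotation of GRCm38. Of 54752 IDs, 54723 had a symbol.

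Tests used edgeR 4.0.16 in R 4.3.3 (robust quasi-likelihood F-test, filterByExpr with minimum count 10 and minimum total 15, Benjamini-Hochberg over all genes tested). Female pairs were fitted within their 6 libraries, male pairs and the comparison of vehicle males within the 12 male libraries, each genotype difference within the 12 libraries of its sex, and the mean response and the difference among responses over all 24. The standard error is the size of the log2 change divided by the square root of F. Correlations used log2 CPM (prior count 2), and the within-group relations two-sided permutation tests with 100000 resamples. No 2 replicates agreed within sampling noise (24 pairs, chi-square per degree of freedom 9.22 to 117).

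Alternatives were RLE scaling, no filter, DESeq2 1.42.0, each library left out, pairs fitted alone, a replicate block, and omission of the transgene male pair. The procedure was also run on simulated data, and its recovery of changed genes there is not reported here. A gene that did not pass is therefore not shown to be unchanged. The 9 genes are always named; partners and cell markers are named where they passed, up to 6 per comparison, as are the 5 genes most and the 5 least like Arntl. A partner gene that was tested is not reported here. Nr1d1, Nr1d2, Dbp in single pairs, Flrt1 and Hspa1a were chosen after their values were seen. Members and lists were chosen with earlier results of these data known.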

Additional observations from a re-analysis of the deposited data

Results flagged for a closer look

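Ciart had libraries that all lay one way in 2 pairs and all the other way in another, the pattern by which the genes of this section were picked. Of all genes, 22.4% did not overlap in transgene females, 14.2% in flox females and 13.8% in transgene males. The log2 change, tamoxifen over vehicle, was 1.69 in transgene females and 2.37 in flox females, with every tamoxifen library higher, and -0.62 in transgene males, with every tamoxifen library lower. The difference among the 4 responses, tested directly, had an adjusted p of 0.117 in edgeR's quasi-likelihood test and of 0.00337 in DESeq2. The transgene male vehicle libraries in this contrast are the 3 whose title and treatment field disagree.

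Bhlhe40, a partner of the loop, likewise lay in opposite directions without overlap. Of all genes, 22.4% did not overlap in transgene females, 14.2% in flox females and 28% in flox males. Its log2 change was -0.49 in transgene females, where every tamoxifen library was lower, and 0.57 in flox females and 0.44 in flox males, where every tamoxifen library was higher. The difference among the 4 responses had an adjusted p of 0.205 in edgeR, and the difference between the female pairs, -1.06 ± 0.20 (SE), one of 0.292. Transgene and flox females lie in separate tables, so the genotype and the table cannot be told apart in them.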

How the results depend on the processing

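Every count below is of genes past the threshold, loop genes of 9 first where both are given. With DESeq2, transgene females had 6 loop genes in place of 3 and 681 genes in all in place of 187, flox females 6 in place of 2 and 143 in place of 19, transgene males 317 genes in place of 139 and flox males 866 in place of 452. DESeq2 also gave 1 loop gene in place of 0 and 418 genes in place of 75 for the difference among responses, 1 in place of 0 and 42 in place of 0 for the female genotype difference, 75 genes in place of 2 for the male one and 594 in place of 148 between vehicle males. Without the filter on low counts, transgene females had 941 genes, flox females 6 loop genes and 329 genes, transgene males 221 genes, flox males 1 loop gene, the difference among responses 166 genes, the female and male genotype differences 20 and 38, and vehicle males 327. Fitted on the 6 libraries of the pair alone, transgene males had 27 genes and flox males 1 loop gene and 917 genes. RLE scaling gave 1 gene in the female genotype difference and changed no other of these counts by over 1.5 times. The causes were not tested.

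With each library left out in turn, loop genes past the threshold ran from 0 to 4 in transgene females, 1 to 2 in flox females, 0 to 0 in transgene males, 1 to 4 in flox males, 6 to 9 in the mean response and 0 to 1 in the difference among responses, where Ciart passed without flox male vehicle 1 (adjusted p = 0.0124, edgeR). All genes past the threshold ran from 37 to 215, 3 to 87, 68 to 151, 143 to 349, 1153 to 1456 and 40 to 108 in the same order, from 0 to 2 and 2 to 8 for the female and male genotype differences, and from 44 to 139 between vehicle males. No filter also ended the calls of Arntl (adjusted p = 0.0593) and Ciart (0.0676) in transgene females, of Arntl in flox males (0.062) and of Per1 and Hlf in the mean (0.0846 and 0.0503), and the 6-library fit that of Arntl in flox males (0.0777).

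Signs reversed in 30 cases, each with a library left out and each for a value that had not passed. The log2 values ran from -0.40 to 0.23 for Npas2, -0.35 to 0.27 for Per1 and -0.13 to 0.089 for Cry1 in transgene males, and from -0.21 to 0.996 for Ciart in flox males. The genotype difference ran from -0.084 to 0.21 for Per3 and -0.22 to 0.10 for Cry2 in females, and from -1.16 to 0.26 for Per2 in males. Between vehicle males it ran from -0.040 to 0.68 for Arntl, -0.97 to 0.31 for Npas2, -0.26 to 1.05 for Per1, -1.12 to 0.30 for Per2, -0.14 to 0.27 for Per3, -0.10 to 0.082 for Cry1, -0.40 to 0.41 for Cry2 and -0.60 to 0.60 for Ciart.

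With the title's number as a replicate block, flox females had 3 loop genes past the threshold in place of 2, Arntl being added (adjusted p = 0.0286, edgeR), and 15 genes in all in place of 19. Same-numbered libraries did not deviate together (correlations of -0.20, -0.033 and -0.101 over 14539 genes), while the other combinations ran from -0.0746 to 0.178. With 3 libraries per group such values cannot decide whether the numbers mark a weak pairing. Npas2, at 2 to 80 counts per library, is the gene whose values depth limits most.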
